A study of Aspergillus nidulans with 4 samples.

Results

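The genes described here are 4 genes of iron metabolism in the filamentous fungus Aspergillus nidulans: the regulators hapX (AN8251) and sreA (AN0176) and the iron-using proteins cytochrome c, cycA (AN6246), and aconitase, acoA (AN5525). They were chosen by name, with earlier results of these data known, and followed on both strands. They are 4 of 7752 genes with a sense count in any deposited table. All 4 were listed in each comparison and on each strand and passed the abundance minimum used below. The study grew the biotin-requiring strain biA1, its wild type, in minimal medium at 37 °C, harvested after 9 to 12 h, and sequenced 1 strand-specific library of rRNA-depleted total RNA per medium. Each library came from RNA of 3 cultures mixed before library making, so the spread between cultures was not measured.

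The media were 0.1% fructose with urea, 0.1% fructose with 10 mM ammonium tartrate, 1% glucose with urea and 1% glucose with 10 mM ammonium tartrate. The submitters class fructose and urea as non-repressing and glucose and ammonium as repressing sources. For urea the sample descriptions state 10 mM whereas the growth protocol states 5 mM, and the sources leave this unsettled. Tartrate came only with ammonium, so a nitrogen comparison is also one of medium without and with tartrate, and a carbon comparison changes the amount of sugar along with its kind. These factors cannot be told apart. In RNA from whole mycelium, fewer cells of a kind and less RNA per cell cannot be told apart either.

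Iron is needed for haem, iron-sulfur clusters and respiration but is harmful when free, so fungi keep uptake and use in balance. In Aspergillus species, the bZIP protein HapX joins the CCAAT-binding complex when iron is short and represses genes of iron-consuming pathways, cytochrome c and aconitase among them. The GATA factor SreA acts when iron is plentiful and represses siderophore and other iron uptake genes. The genes are linked by a loop in which each regulator holds down the gene of the other. Iron in the media or the mycelium was not measured in these files, so the counts below describe transcripts and not an iron state.

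The summed sense counts of listed genes were 812637 in fructose with urea, 547041 in fructose with ammonium, 1698692 in glucose with urea and 2606076 in glucose with ammonium, and the counting error is larger in fructose. Values in CPM are counts scaled to these sums, and 3 counts correspond to between 1.15 and 5.48 CPM. A log2 ratio is urea over ammonium or fructose over glucose after TMM scaling, which evens out the composition of libraries, with 1 count added. The parentheses hold the exact 95% interval for counting error only, computed without the added count. With 1 library per medium the media could not be tested, so "higher" and "lower" are said of the libraries alone. Genes of unequal length gather unequal counts, so levels are compared between media and not between genes.

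The regulator hapX was the member that stood furthest from the other genes when urea replaced ammonium in glucose, and cycA and acoA were the members past 4-fold in fructose with urea. Urea over ammonium in glucose had 1 of the 4 members, hapX, past 4-fold on the higher side and 0 on the lower side, where 1.34% and 0.535% of 6354 tested genes were past 4-fold on those sides. Urea over ammonium in fructose had 0 members past 4-fold on the higher side and 1, cycA, on the lower side, against a background of 11.4% higher and 11.0% lower among 7203 genes. Fructose over glucose with urea had 1 member, acoA, on the higher side and 0 on the lower side, with 14.6% and 15.2% of 7135 genes past 4-fold there. Fructose over glucose with ammonium had 0 members past 4-fold in either direction, with 8.33% of 6647 genes higher and 7.01% lower. Ratios past 4-fold were common among all genes wherever the library of fructose with urea took part, so 1 member of 4 there says nothing particular of the members. They were rare for urea over ammonium in glucose.

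The hapX gene encodes the bZIP regulator of the response to low iron. It had 9 sense counts in fructose with urea, 15 in fructose with ammonium, 62 in glucose with urea and 18 in glucose with ammonium. These were 11.1 CPM (5.06 to 21.0), 27.4 CPM (15.3 to 45.2), 36.5 CPM (28.0 to 46.8) and 6.91 CPM (4.09 to 10.9) in the same order of media. The library of glucose with urea was the highest and that of glucose with ammonium the lowest. The counting intervals of the pair of highest libraries overlapped, as did those of both fructose libraries.

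In glucose, the hapX transcript was 5.19-fold higher with urea than with ammonium, a log2 ratio of 2.38 (1.68 to 3.30). Of the tested genes, 0.755% had a ratio at least that high. In fructose the order of the nitrogen sources was the opposite, with a log2 ratio of -1.39 (-2.88 to -0.22) for urea over ammonium. The carbon ratios were also opposite in sign: fructose over glucose was -1.91 (-3.18 to -0.97) with urea and 1.85 (0.85 to 3.02) with ammonium. The hapX transcript was thus high in either medium that paired a repressing with a non-repressing source and low where both sources were of 1 kind.

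With 1 scaling over all 4 libraries, the nitrogen ratio of hapX was lower in fructose than in glucose by a log2 difference of -3.89 (-5.49 to -2.33). Ranked on that scale, the order was glucose with urea, fructose with ammonium, fructose with urea and glucose with ammonium, and the highest level was 5.36 times the lowest. The first pair of neighbours in that order did not differ beyond counting error (log2 0.44, -0.39 to 1.36), nor did the last pair (0.51, -0.82 to 1.74), whereas the middle step of 1.47 (0.18 to 2.84) did. In the authors' deposited table for urea and ammonium in glucose, the false discovery rate (FDR) of hapX was 0.120, with a spread between cultures that the authors assumed and did not measure. The authors' deposited table for fructose and glucose with urea gave hapX an FDR of 0.0474, and those for nitrogen in fructose and carbon with ammonium gave 0.302 and 0.105.

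The sreA gene encodes the GATA repressor of siderophore synthesis. Its sense counts were 65 in fructose with urea, 16 in fructose with ammonium, 43 in glucose with urea and 129 in glucose with ammonium. The levels were 80.0 CPM (61.7 to 102), 29.2 CPM (16.7 to 47.5), 25.3 CPM (18.3 to 34.1) and 49.5 CPM (41.3 to 58.8). The media with sreA high were the media with hapX low, and the libraries of fructose with ammonium and glucose with urea had overlapping low intervals. That of fructose with ammonium also reached into the interval of glucose with ammonium.

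In glucose, sreA was lower with urea than with ammonium, at -0.90 (-1.45 to -0.41). In fructose it was 2.32-fold higher with urea, at 1.21 (0.45 to 2.14). Fructose over glucose was 1.37 (0.81 to 1.98) with urea and -0.79 (-1.65 to -0.05) with ammonium. Each of the 4 ratios of sreA had the sign opposite to that of hapX, and none reached 4-fold. Because the 4 comparisons share libraries, these signs are not independent of each other.

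The nitrogen ratio of sreA was higher in fructose than in glucose by 2.23 (1.24 to 3.26) on the log2 scale. The order of its levels was fructose with urea, glucose with ammonium, fructose with ammonium and glucose with urea, over a 2.77-fold range. The first step was 0.53 (0.07 to 0.97) on the log2 scale and the next 0.76 (0.01 to 1.61), while the last neighbours did not differ beyond counting error (0.18, -0.74 to 1.04). The sense FDR of sreA in the authors' deposited tables was 1.0 for nitrogen in glucose, 0.240 for nitrogen in fructose, 0.107 for carbon with urea and 0.534 for carbon with ammonium, so no sense comparison of this gene passed 0.05 under their assumed spread.

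**Figure D1:**
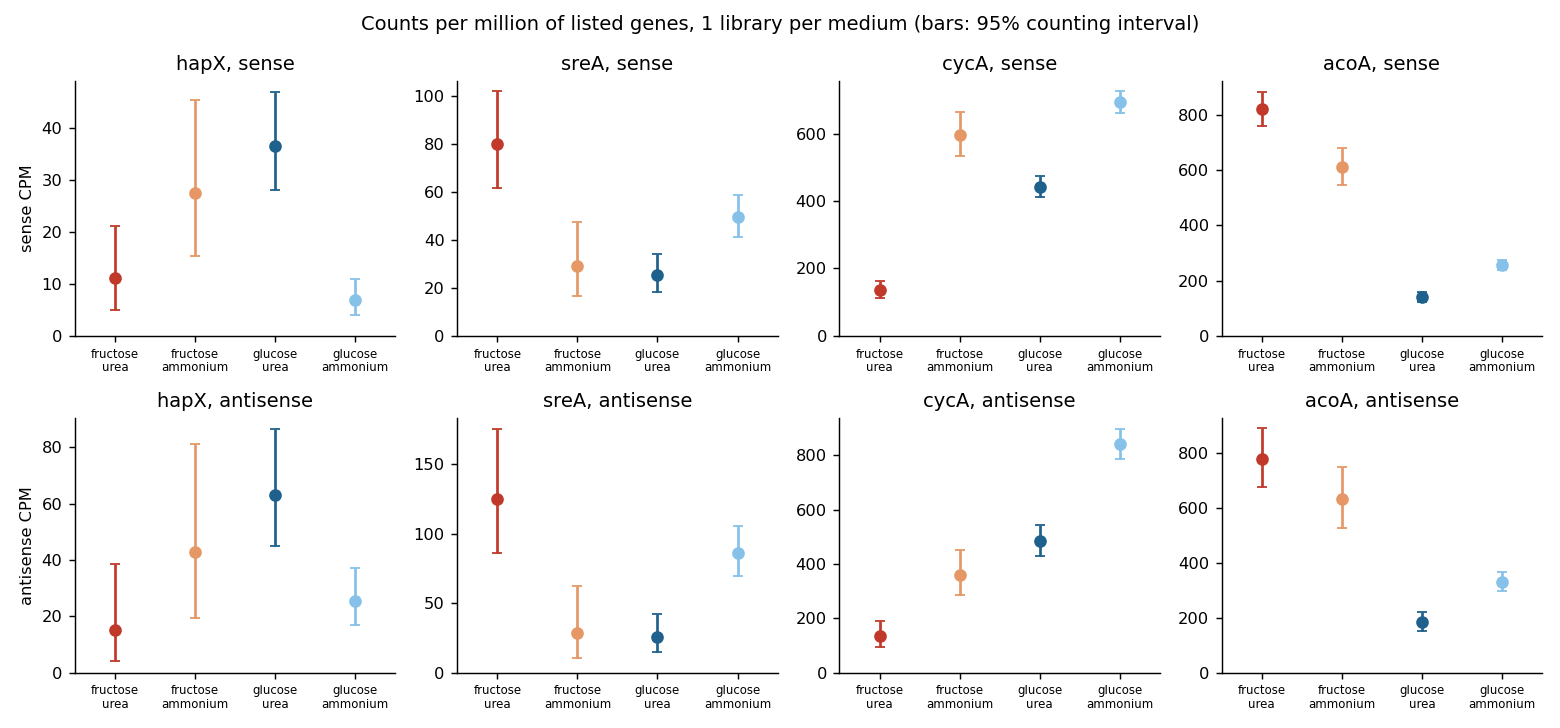
CPM of listed genes (y axis, linear, own range in each panel) for hapX, sreA, cycA and acoA in the 4 media, sense strand in the upper row and antisense in the lower, with points for the single library of each medium and bars for the exact 95% counting interval. On the sense strand hapX is highest in glucose with urea at 36.5 CPM, sreA in fructose with urea at 80.0 CPM, cycA is lowest in fructose with urea at 135 CPM, and acoA is highest there at 820 CPM.

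The ratio of hapX to sreA counts within 1 library needs no scaling between libraries. The ratio was 0.138 (0.0606 to 0.279) in fructose with urea, 0.938 (0.432 to 2.02) in fructose with ammonium, 1.44 (0.962 to 2.18) in glucose with urea and 0.140 (0.0802 to 0.229) in glucose with ammonium. The media fell into a low pair and a high pair whose intervals did not overlap, and within each pair the intervals overlapped. With antisense counts taken off, the log2 ratio in glucose with urea was -0.23 instead of 0.53, and glucose with ammonium gave no value, since hapX had 27 antisense and 18 sense counts there. The size of a ratio depends on the lengths of both genes, so it is read here only from 1 medium to another.

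The balance differed between the nitrogen sources in opposite directions in fructose and in glucose. In glucose it was 10.3-fold higher with urea (5.30 to 20.5), a log2 change of 3.37. In fructose it was 6.77-fold lower with urea, a log2 change of -2.76 (-4.37 to -1.17). Fructose over glucose gave a log2 change of -3.38 (-4.70 to -2.16) with urea, which is 10.4-fold lower, and of 2.75 (1.37 to 4.11) with ammonium, which is 6.72-fold higher. The fructose values rest on 9 and 15 hapX counts. A low balance was thus shared by the medium in which both sources are non-repressing and the medium in which both are repressing.

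**Figure D2:**
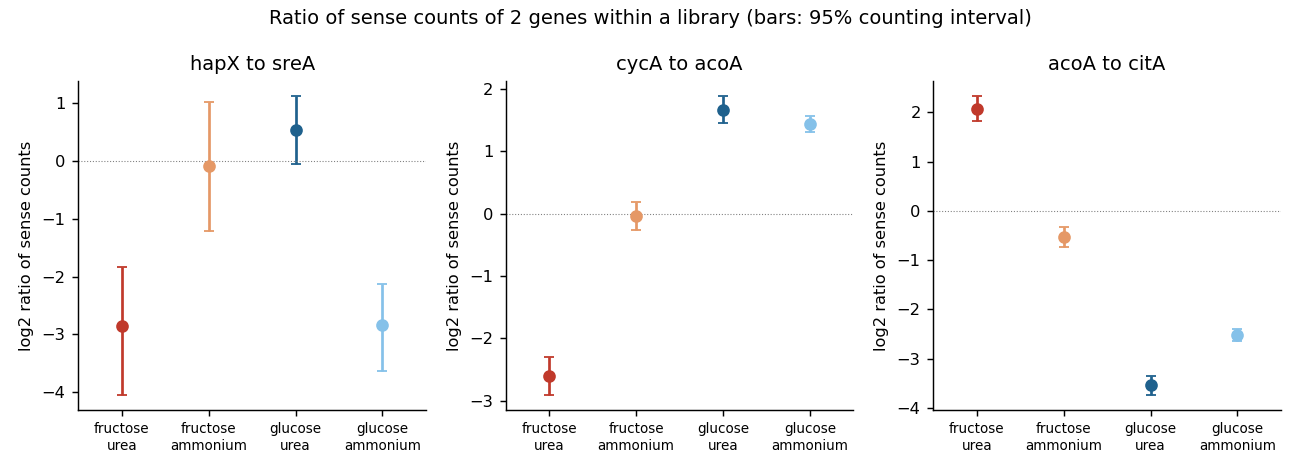
Log2 ratio of sense counts of 2 genes within each library (y axis) for hapX to sreA, cycA to acoA and acoA to the citrate synthase gene citA in the 4 media, with bars for the exact 95% counting interval. The hapX to sreA ratio is near -2.85 in fructose with urea and -2.84 in glucose with ammonium and stands at -0.09 in fructose with ammonium and 0.53 in glucose with urea, while cycA to acoA is lowest and acoA to citA highest in fructose with urea.

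The cycA gene encodes cytochrome c, the haem protein that carries electrons to cytochrome c oxidase. It had 110 sense counts in fructose with urea, 326 in fructose with ammonium, 752 in glucose with urea and 1804 in glucose with ammonium. This gave 135 CPM (111 to 163), 596 CPM (533 to 664), 443 CPM (412 to 475) and 692 CPM (661 to 725). Fructose with urea stood apart as the low library, and the intervals overlapped only, and slightly, between fructose with ammonium and glucose with ammonium.

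In fructose, cycA was 5.01-fold lower with urea than with ammonium, at -2.32 (-2.66 to -2.02), and 8.52% of tested genes were at least as low. In glucose the ratio of urea over ammonium was -0.59 (-0.72 to -0.47). Fructose over glucose was -1.97 (-2.28 to -1.69) with urea and -0.26 (-0.43 to -0.09) with ammonium. All 4 ratios were below 0, and the ratios with the library of fructose with urea were the 2 of largest size. The nitrogen ratio differed between fructose and glucose by -1.68 (-2.03 to -1.34).

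Ranked from high to low, cycA was in glucose with ammonium, fructose with ammonium, glucose with urea and fructose with urea. The steps between neighbours were 0.22 (0.05 to 0.39), 0.40 (0.21 to 0.59) and 1.90 (1.61 to 2.20) on the log2 scale, each beyond counting error. The authors' deposited table gave cycA an FDR of 0.00525 for nitrogen in fructose, and their deposited table for carbon with urea gave 0.0102. In the authors' deposited tables the values were 1.0 for nitrogen in glucose and 0.848 for carbon with ammonium.

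The acoA gene encodes an aconitase, an iron-sulfur enzyme that turns citrate into isocitrate in the tricarboxylic acid (TCA) cycle. The sense counts were 666 in fructose with urea, 334 in fructose with ammonium, 237 in glucose with urea and 667 in glucose with ammonium. In CPM these were 820 (758 to 884), 611 (547 to 680), 139.5 (122 to 158) and 256 (237 to 276). Both fructose libraries lay above both glucose libraries, and no interval overlapped another.

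Fructose over glucose was 4.86-fold higher for acoA with urea, at 2.28 (2.07 to 2.51), and 2.31-fold higher with ammonium, at 1.21 (1.02 to 1.40). Of all tested genes, 12.6% had a carbon ratio with urea at least that high. Urea over ammonium was 0.23 (0.03 to 0.42) in fructose and -0.82 (-1.04 to -0.61) in glucose, and with 1 scaling over all libraries fructose minus glucose was 1.12 (0.82 to 1.41). The carbon source thus went with the larger differences in acoA, in the same direction under either nitrogen source.

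The order of acoA was fructose with urea, fructose with ammonium, glucose with ammonium and glucose with urea, with steps of 0.26 (0.07 to 0.46), 1.25 (1.06 to 1.44) and 0.85 (0.64 to 1.07). In the authors' deposited table for carbon with urea the FDR of acoA was 0.00254. The other 3 comparisons had FDR values of 0.194 for carbon with ammonium, 0.858 for nitrogen in fructose and 1.0 for nitrogen in glucose in the authors' deposited tables.

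**Figure D3:**
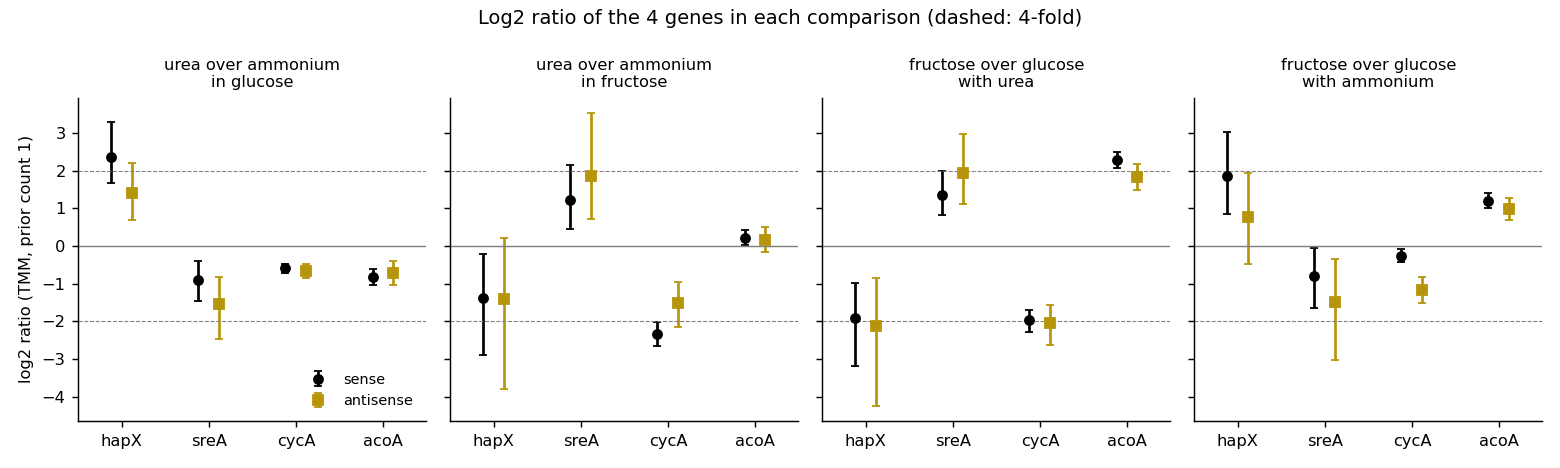
Log2 ratio (y axis, TMM scaling, 1 count added) of the 4 genes in each of the 4 comparisons, sense strand as black circles and antisense as yellow squares, with bars for the exact 95% counting interval and dashed lines at 4-fold. The sense ratios of hapX and sreA take opposite signs in every panel, and cycA lies below 0 in all 4.

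The iron-using members took different courses over the media. The ratio of cycA to acoA counts was 0.165 in fructose with urea, 0.976 in fructose with ammonium, 3.17 in glucose with urea and 2.70 in glucose with ammonium. It was 19.2-fold lower in fructose than in glucose with urea, a log2 change of -4.26 (-4.64 to -3.89), and 2.77-fold lower with ammonium, -1.47 (-1.73 to -1.21). Urea over ammonium gave -2.56 (-2.94 to -2.19) in fructose and 0.23 (-0.02 to 0.48) in glucose. In fructose with urea the transcript of the haem protein was thus at its lowest and that of the iron-sulfur enzyme at its highest.

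The enzyme that makes the substrate of aconitase, citrate synthase, does not need iron and is encoded by citA (AN8275). The gene was picked for this pairing after its values had been seen. The citA transcript had 158 counts in fructose with urea, 482 in fructose with ammonium, 2754 in glucose with urea and 3834 in glucose with ammonium. With urea its log2 ratio of fructose over glucose was -3.32 (-3.57 to -3.10), where that of acoA was above 0. Among the tested TCA genes without iron, listed below, this was the ratio of largest size in that comparison, where their median was -0.60. The size of the acoA to citA ratio therefore depends on this choice of partner.

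The ratio of acoA to citA was 4.22 in fructose with urea, 0.693 in fructose with ammonium, 0.0861 in glucose with urea and 0.174 in glucose with ammonium. It was 49.0-fold higher in fructose than in glucose with urea, a log2 change of 5.61 (5.29 to 5.94), and 3.98-fold higher with ammonium, 1.99 (1.75 to 2.23). Urea over ammonium gave 2.60 (2.28 to 2.94) in fructose and -1.02 (-1.25 to -0.79) in glucose. With ammonium too the carbon ratio of citA was below 0, at -0.78 (-0.92 to -0.65), and that of acoA above it.

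The deposited descriptions name 2 other putative aconitase genes. AN3894 had 7 counts in fructose with urea, 8 in fructose with ammonium, 71 in glucose with urea and 244 in glucose with ammonium. Its carbon ratios, -2.43 (-3.91 to -1.43) with urea and -2.67 (-3.95 to -1.72) with ammonium, were opposite in sign to those of acoA. AN5300 had 29 counts in fructose with urea, 5 in fructose with ammonium and 0 in glucose with urea, a library in which up to 3 counts could have gone unseen. The aconitase genes thus differed among themselves in how they followed the carbon source.

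The antisense strand was counted for the same 4 genes. Antisense counts of hapX were 4 in fructose with urea, 9 in fructose with ammonium, 39 in glucose with urea and 27 in glucose with ammonium. Those of sreA were 33, 6, 16 and 91 in the same order of media, and those of cycA were 36, 76, 299 and 891. For acoA they were 206, 133, 114 and 351. In CPM of the antisense total, each gene was highest in the same medium as on the sense strand. The lowest medium was also the same for sreA, cycA and acoA, while antisense hapX was lowest in fructose with urea, at 15.1 CPM, and next lowest in glucose with ammonium, at 25.5 CPM.

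The antisense ratios had the sign of the sense ratios for every member in all 4 comparisons, though 3 of the 16 intervals reached across 0. These were hapX for urea over ammonium in fructose, -1.39 (-3.78 to 0.21), hapX for fructose over glucose with ammonium, 0.77 (-0.47 to 1.94), and acoA for urea over ammonium in fructose, 0.17 (-0.15 to 0.49). For hapX in glucose the antisense ratio was 1.41 (0.70 to 2.21) beside 2.38 for sense. For sreA it was 1.94 (1.12 to 2.99) beside 1.37 in fructose over glucose with urea, and for acoA 1.82 (1.50 to 2.18) beside 2.28. Antisense counts of cycA were further below than sense counts in fructose over glucose with ammonium, -1.16 (-1.52 to -0.82) beside -0.26. Whether these reads come from separate transcripts, from neighbouring genes or from sense reads assigned to the other strand was not tested.

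The antisense share of all counts of a gene was 30.8% (9.09% to 61.4%) for hapX in fructose with urea, 37.5% (18.8% to 59.4%) in fructose with ammonium, 38.6% (29.1% to 48.8%) in glucose with urea and 60.0% (44.3% to 74.3%) in glucose with ammonium. For sreA the share ranged between 27.1% in glucose with urea and 41.4% (34.8% to 48.2%) in glucose with ammonium. The share of cycA lay between 18.9% (15.2% to 23.1%) and 33.1% (31.3% to 34.9%) over the 4 libraries, and that of acoA between 23.6% and 34.5%. Genes with at least 20 counts over both strands had a median share of 20.7% in fructose with urea, 23.7% in fructose with ammonium, 24.0% in glucose with urea and 28.0% in glucose with ammonium. Every member had its highest share in glucose with ammonium, as the median had, and the intervals of hapX in fructose with urea and in glucose with ammonium overlapped.

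Relative to sense, antisense counts of hapX in glucose were lower with urea than with ammonium by -1.25 (-2.39 to -0.13) on the log2 scale. Those of cycA with ammonium were lower in fructose than in glucose by -1.08 (-1.48 to -0.70). Those of acoA with urea were lower in fructose than in glucose by -0.64 (-1.04 to -0.23). Smaller changes with intervals away from 0 were -0.31 (-0.54 to -0.08) for cycA in urea over ammonium in glucose and -0.40 (-0.76 to -0.05) for acoA in fructose over glucose with ammonium. The intervals of all other changes reached across 0. The median share of all genes was lower in the same directions, as given above, and how much of the members' values that shift holds was not tested. In the authors' deposited tables, the antisense FDR was below 0.05 for sreA (0.0464), cycA (0.0144) and acoA (0.0250) in carbon with urea, and hapX was at 0.0560 there.

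Lists of genes with related roles were set beside the members, by symbols and by words in the deposited descriptions. List counts of genes at least 4-fold higher or lower stand beside the shares of all tested genes, which were 1.34% and 0.535% for urea over ammonium in glucose, 11.4% and 11.0% for urea over ammonium in fructose, 14.6% and 15.2% for fructose over glucose with urea, and 8.33% and 7.01% for fructose over glucose with ammonium. The CCAAT-binding complex, to which HapX binds, has 3 subunits encoded by hapB, hapC and hapE, and 0 of 3 were past 4-fold in any comparison. Of these, hapB (AN7545) had the widest values, 1.42 (0.89 to 1.97) for fructose over glucose with ammonium and -0.81 (-1.45 to -0.22) for urea over ammonium in fructose. In urea over ammonium in glucose, where hapX stood at 2.38, the subunits lay at -0.22 for hapB, -0.20 for hapC and 0.26 for hapE. The median over all tested genes was -0.00 for urea over ammonium in glucose, 0.07 for urea over ammonium in fructose, -0.03 for fructose over glucose with urea and -0.11 for fructose over glucose with ammonium.

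Siderophores are the iron carriers that fungi secrete and take up again, and their genes are repressed by SreA. Of 12 siderophore genes, 3 were past 4-fold on the higher side and 0 on the lower side with urea in glucose (median 1.31), and 0 were higher and 5 lower with urea in fructose (median -1.56). Fructose over glucose had 0 higher and 6 lower with urea (median -1.81) and 2 higher and 0 lower with ammonium (median 0.97). The medians had the signs of the hapX to sreA balance in all 4 comparisons, which share libraries. The ornithine monooxygenase gene sidA, which acts at the first committed step, stood at -4.75 in fructose and 1.17 in glucose for urea over ammonium. The siderophore transporter gene mirB had the signs of the balance throughout. It stood at 4.20 in glucose and -2.47 in fructose for urea over ammonium, and its carbon ratios were -2.18 with urea and 4.47 with ammonium. The mirA gene had these signs too, at 3.07, -4.51, -6.13 and 1.51. AN8539 stood at 5.63, -0.96, 0.86 and 7.36. The synthetase gene sidC, not among those with the largest ratios, stood at 0.59 in fructose and 0.01 in glucose for urea over ammonium. The genes of the list thus did not share 1 course.

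Haem is the cofactor of cytochrome c. Of the haem synthesis genes tested, 0 of 8 were past 4-fold for urea over ammonium in glucose (median -0.26). In fructose, 0 of 7 were higher and 2 lower with urea (median -1.42). Fructose over glucose with urea had 0 of 8 higher and 3 lower (median -1.69), and with ammonium 0 higher and 1 lower (median -0.05). Before entries with unrelated descriptions were removed, 5 instead of 3 were lower for fructose over glucose with urea.

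The predicted coproporphyrinogen oxidase gene AN5130 had 53 counts in fructose with urea, 1203 in fructose with ammonium, 2885 in glucose with urea and 5732 in glucose with ammonium. Its ratio was -5.24 (-5.70 to -4.88) for urea over ammonium in fructose and -4.95 (-5.39 to -4.58) for fructose over glucose with urea. The hemA gene (AN2284), for the first enzyme of the pathway, was at -2.67 (-3.35 to -2.13) and -2.06 (-2.69 to -1.53) in these comparisons. Like cycA, both genes were lowest in fructose with urea.

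The list called respiratory cytochromes holds genes for subunits of the complexes on either side of cytochrome c and for holocytochrome-c synthases. A place on it does not mean that the protein itself holds haem. Of 17 nuclear genes, 0 were past 4-fold for urea over ammonium in glucose (median 0.04), and 0 were higher and 9 lower in fructose (median -2.03). Fructose over glucose had 0 higher and 10 lower with urea (median -2.17) and 0 past 4-fold with ammonium (median -0.36). The cycA ratios of -0.59, -2.32, -1.97 and -0.26 lay within 1 log2 unit of these medians. The oxidase subunit gene AN2316 had the lowest ratio of the list, -4.53 (-6.36 to -3.48) for fructose over glucose with urea, on 5 counts in fructose.

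The mitochondrial genome holds 4 genes of this list, cobA for cytochrome b and oxiA, oxiB and oxiC for subunits of cytochrome c oxidase. All 4 were at least 4-fold lower with urea in fructose (median -2.48) and in fructose over glucose with urea (median -2.82). In urea over ammonium in glucose they were not past 4-fold, and their median was 1.17, where cycA stood at -0.59. In fructose over glucose with ammonium the median was 0.89. The nuclear and mitochondrial medians were thus both low in the comparisons that hold the library of fructose with urea, and over 1 log2 unit apart in the others.

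Iron-sulfur clusters are built in mitochondria before they enter enzymes such as aconitase. Of 13 assembly genes, 0 were at least 4-fold higher in any comparison. Past 4-fold on the lower side lay 1 for urea over ammonium in fructose (median -0.68) and 2 for fructose over glucose with urea (median -0.94), close to the 11.0% and 15.2% of all genes. In the other comparisons 0 were past 4-fold, with medians of -0.09 for urea over ammonium in glucose and -0.19 for fructose over glucose with ammonium. The lowest member, AN11060, rests on 1 count in fructose with urea.

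Iron-sulfur enzymes other than acoA gave mixed counts. For urea over ammonium, 0 of 11 were past 4-fold in glucose (median -0.39), and 0 of 12 were higher and 5 lower in fructose (median -1.01). With urea, 1 of 11 was higher and 3 lower in fructose over glucose, with a median of -0.20 that became 0.06 when the libraries were scaled by their totals. With ammonium, 2 of 12 were higher and 0 lower (median 0.42). The putative succinate dehydrogenase gene AN1543, another enzyme of the TCA cycle, had carbon ratios of 2.55 (2.11 to 3.07) with urea and 2.18 (1.90 to 2.49) with ammonium, of the sign of acoA. The putative sulfite reductase genes AN1752 and AN7600 stood at -3.20 (-4.31 to -2.41) and -2.99 (-4.11 to -2.20) in fructose over glucose with urea.

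The other TCA enzymes, which need no iron, had 0 of 11 genes past 4-fold for urea over ammonium in glucose (median 0.19) and 0 of 12 higher and 3 lower in fructose (median -0.99). Before entries with unrelated descriptions were removed, which was done after values were seen, 7 were lower there and 6 for fructose over glucose with urea. Fructose over glucose had 1 of 11 higher and 2 lower with urea (median -0.60) and 2 of 12 higher and 0 lower with ammonium (median 0.02). The gene mdhB (AN5031) is 1 of these 2 higher genes and 1 of the 3 lower with urea in fructose. It had 191 counts in fructose with ammonium and 0 in fructose with urea and in glucose with ammonium. It is thus in these counts only through the library of fructose with ammonium. The NADP-dependent isocitrate dehydrogenase gene idpA (AN2999), whose enzyme acts after aconitase, had carbon ratios of 2.25 (1.70 to 2.91) with urea and 3.18 (2.73 to 3.74) with ammonium. The putative NAD-dependent isocitrate dehydrogenase genes AN1003 and AN5790 had carbon ratios below 0 instead. With urea they stood at -2.25 for AN1003 and -1.59 for AN5790. With ammonium they stood at -0.26 and -0.62, and the interval of AN1003 reached across 0 there. The acoA transcript was therefore not alone among TCA genes in a higher level in fructose, as idpA shows. The isocitrate dehydrogenase genes did not share its course as a group.

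Some deposited descriptions state that a protein was more or less abundant in a hapX mutant, acoA among those that were more abundant. Of the 11 other genes with more protein in the mutant, 4 (hemA, luA, AN0747 and AN8273) also belong to the lists above. Of these 11, 0 were past 4-fold for urea over ammonium in glucose (median -0.19), where the hapX transcript was 5.19-fold higher. In fructose, 0 were higher and 5 lower with urea (median -1.17), where hapX was lower. Fructose over glucose had 0 higher and 5 lower with urea (median -1.38) and 0 higher and 2 lower with ammonium (median -0.26). With the libraries scaled by their totals, 3 instead of 5 were lower in either comparison with the library of fructose with urea, and 1 instead of 2 in fructose over glucose with ammonium.

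Among the genes with less protein in the mutant, 1 of 15 was at least 4-fold higher and 0 lower for urea over ammonium in glucose (median 0.11). Of 16 genes, 1 was higher and 4 lower for urea over ammonium in fructose (median 0.03). Fructose over glucose had 1 higher and 3 lower with urea (median -0.33) and 1 higher and 0 lower with ammonium (median 0.05). The list with more protein in the mutant had medians near those of all genes in the comparisons in which hapX was higher. These were -0.19 beside -0.00 for urea over ammonium in glucose and -0.26 beside -0.11 for fructose over glucose with ammonium. In the comparisons in which hapX was lower its medians were -1.17 and -1.38. Both of these hold the library of fructose with urea. The haem synthesis medians, -1.42 and -1.69, were low there too. So were those of the nuclear genes of the respiratory cytochrome list, -2.03 and -2.17. Low medians there were thus not particular to the list from the mutant, which shares genes with these lists. That list was also defined by protein, whereas the counts are of RNA. Whether the list from the mutant follows hapX was not tested.

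**Figure D4:**
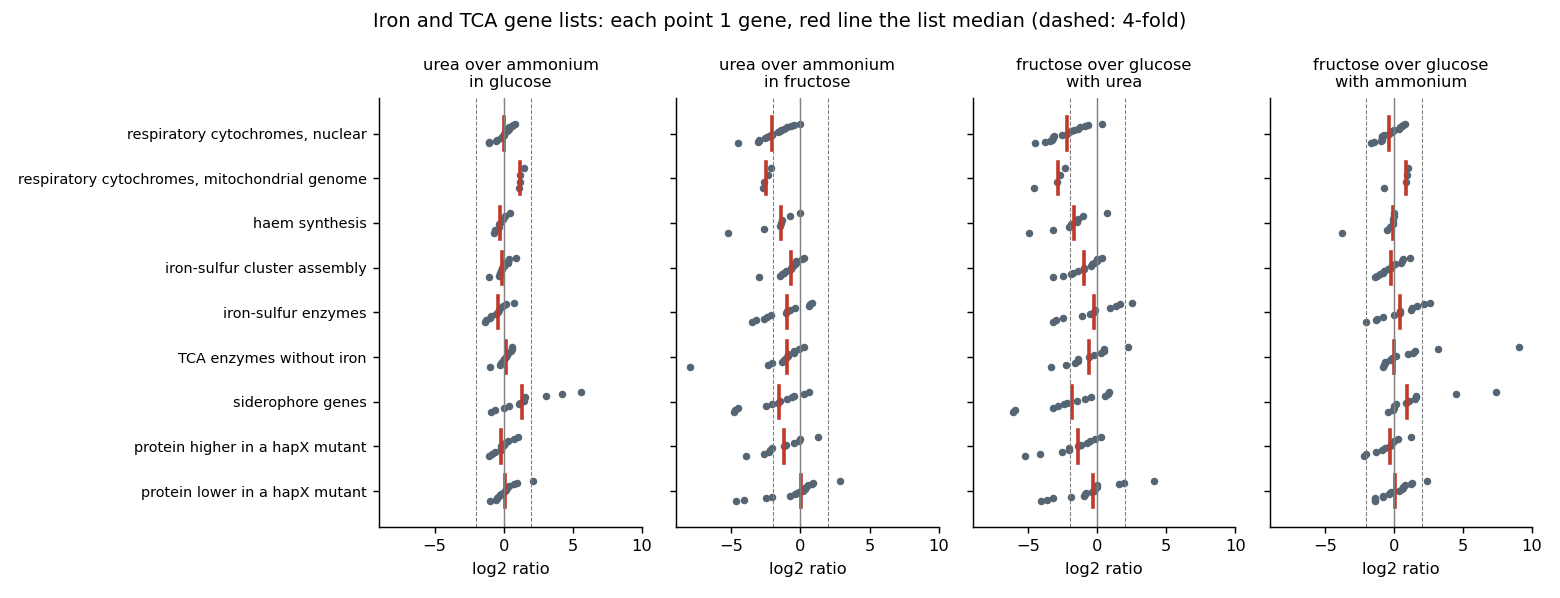
Log2 ratio (x axis) of each gene of 9 iron and TCA lists in the 4 comparisons, 1 point per tested gene, with the list median as a red line and dashed lines at 4-fold. The nuclear genes of the respiratory cytochrome list centre at -2.03 for urea over ammonium in fructose and -2.17 for fructose over glucose with urea. For urea over ammonium in glucose they centre at 0.04, while the siderophore medians change sign between the panels. The outermost TCA points are mdhB (AN5031), which had 0 counts in fructose with urea and in glucose with ammonium, so their place depends on the added count.

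The genes with the pattern most like each member were sought by the distance between centred log2 levels over the 4 libraries. For cycA these were AN5372 at 0.0715, AN7771 at 0.0730 and the heat shock protein gene hsp90 (AN8269) at 0.174, where the median of 3421 candidates was 2.06. For acoA they were AN5965 at 0.119, AN6551 at 0.257 and AN4050, a putative salicylaldehyde dehydrogenase gene, at 0.287, with a median of 2.08. For sreA they were AN1171 at 0.0970, AN8069 at 0.177 and AN7499 at 0.178, among 6779 candidates with a median of 1.82. For hapX they were AN0376 at 0.455, AN7921 at 0.482 and AN7189 at 0.570, with a median of 2.40, and these have 2 to 26 counts per library. Likeness over 4 libraries is a description of a shape and of no more.

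Among the members themselves, the nearest pair was sreA and acoA, at a distance of 1.62, and the furthest cycA and acoA, at 3.39. The regulators hapX and sreA lay 2.99 apart. The distance of sreA and acoA was below the candidate medians of 1.82 for sreA and 2.08 for acoA. Every other pair lay above the medians of both its genes. The nearest outside genes were picked from 3421 or 6779 candidates, so the members' distances are not set against them.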

How the data were processed

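The authors deposited 8 tables, each for 1 comparison on 1 strand. Per the file headers, a table holds, gene by gene, unscaled counts of reads for a pair of libraries, then a log2 fold change and mean log2 CPM by the authors, and their p-value with its FDR. The submitters' processing notes name HTSeq and edgeR, with no version. Aligner, genome build, annotation and full depth were not given in the sources used here. An assumed coefficient of variation of 0.3 stands in the tables' names, so the authors' p-values rest on it. Genes low in both libraries are not in the tables (the lowest value of the higher library was 10.4 CPM), and 16 columns of values per library were not used.

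From the deposited counts, log2 ratios were computed with TMM scaling (edgeR 4.0.16, R 4.3.3) and a prior count of 1, and lay within 0.0827 of the authors' log2 values for genes with 20 or more counts, once the deposited nitrogen values, ammonium over urea, were turned. Intervals are exact (Clopper-Pearson for ratios and shares, Poisson for levels, conditional for changes of ratios; SciPy 1.17.1) and cover counting error only, since amplified reads are not independent molecules. Genes past 4-fold were counted where the deposited mean log2 CPM reached 3. A gene at 0 enters that count by its ratio with the prior count, and its bound against 3 counts lay below 4-fold for 109 genes counted for nitrogen in fructose and 56 for carbon with ammonium. No list median in the text moved when such genes were set to their bound. The scripts were checked on simulated counts in which fewer genes changed than were past 4-fold in the comparisons with fructose. The check therefore does not cover scaling between libraries that differ so widely.

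The members and lists were chosen with earlier results of these data known. Named were the members, hapB, hapC, hapE, up to 4 genes per list and comparison with the largest ratio, and the 3 nearest patterns. The gene sidC was named outside this rule. The choice of citA as a partner of acoA, both lists from hapX mutants and the separate mitochondrial list came after values were seen. So did the removal of list entries with unrelated descriptions. RefSeq locus tags (ASM1142v1) matched 4 of 4 members and were used for names only.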

Additional observations from a re-analysis of the deposited data

Results flagged for a closer look

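These results are given because a gene lay on opposite sides of 0 in paired comparisons, with each interval away from 0. Every comparison has 1 library per medium, so the difference between the comparisons was not tested against a spread between cultures. The ratio of urea over ammonium for hapX was lower in fructose than in glucose by a log2 difference of -3.76, between -1.39 and 2.38. For sreA the difference was 2.12, between 1.21 in fructose and -0.90 in glucose, and for acoA it was 1.05, between 0.23 and -0.82. The ratio of fructose over glucose for hapX was lower with urea than with ammonium by -3.76, and for sreA it was higher by 2.15. The nitrogen and the carbon differences of a gene come from the same 4 counts.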

How the results depend on the processing

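No paired analysis was possible because each medium has 1 library. Of 80 alternative values for the sense ratios of the members, 78 stayed within the counting interval and 0 changed sign, and all 80 antisense values stayed within it. The exceptions came from scaling by library totals, with acoA at 0.42 for nitrogen in fructose and 2.55 for carbon with urea. With that scaling the median of all genes was 0.26 instead of 0.07 for nitrogen in fructose and 0.24 instead of -0.03 for carbon with urea. Over all settings hapX ranged between 2.12 and 2.43 for nitrogen in glucose and between -1.47 and -1.06 for nitrogen in fructose. With antisense counts taken off, log2 hapX to sreA in glucose with urea was -0.23, no value could be had in glucose with ammonium, acoA to citA was -0.80, -3.74 and -2.90 in fructose with ammonium, glucose with urea and glucose with ammonium, and cycA to acoA in fructose with ammonium was 0.31; for the ratios with acoA this was chosen after seeing the data. Counts of genes past 4-fold fell at a mean log2 CPM of 5 or more to 28 higher and 8 lower for nitrogen in glucose (85 and 34 before), 391 and 499 for nitrogen in fructose (822 and 789), 625 higher for carbon with urea (1044), and 275 and 184 for carbon with ammonium (554 and 466). With a prior count of 5 they were 55, 20 and, for nitrogen in fructose, 480 higher. Of 588 list values, 539 held and 49 moved. The list with more protein in a hapX mutant had 3 instead of 5 genes 4-fold lower under total scaling in both comparisons with fructose and urea. With the entries as first written, chosen after seeing the data, the other TCA enzymes had 7 instead of 3 and 6 instead of 2 lower there, and haem synthesis 5 instead of 3 for carbon with urea. The cause was not tested.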

Other observations

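Catalases and peroxidases are haem enzymes outside the respiratory chain. Of the 6 listed genes, 2 were tested for urea over ammonium in glucose and 4 for fructose over glucose with ammonium. All 6 were tested in the comparisons with the library of fructose with urea. The genes catA (AN8637) and AN8553 were tested only there, so no count or median over the list is given. For cpeA (AN7388), which encodes a catalase-peroxidase, there were 1756 counts in fructose with urea, 155 in fructose with ammonium, 0 in glucose with urea and 3 in glucose with ammonium. The cytochrome c peroxidase gene ccp1 (AN10220), whose enzyme takes electrons from cytochrome c, had carbon ratios above 0, unlike cycA, with 2.05 (1.63 to 2.54) with urea and 1.18 (0.90 to 1.47) with ammonium. Its nitrogen ratios had the sign of those of cycA, at -0.88 (-1.22 to -0.55) in fructose and -1.73 (-2.17 to -1.34) in glucose. The catalase gene catB (AN9339) stood at -2.69 (-3.75 to -1.93) in fructose and -1.19 (-1.64 to -0.77) in glucose for urea over ammonium, and at -1.24 (-2.24 to -0.42) for fructose over glucose with urea.

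Of the genes described as iron transporters, ferric-chelate reductases or metalloreductases, siderophore genes aside, 0 of 4 were past 4-fold for urea over ammonium in glucose (median 0.37). In fructose 1 of 5 was higher with urea and 1 lower (median 1.18). That median is the value of AN3690, on 17 counts with urea and 4 with ammonium, and its interval reached across 0 (-0.30 to 3.35). Fructose over glucose had 1 higher and 1 lower with either nitrogen source (medians -0.95 with urea and -0.11 with ammonium). AN8683, an ortholog of ferric-chelate reductases, had 402 counts in fructose with urea, 26 in fructose with ammonium, 5 in glucose with urea and 20 in glucose with ammonium. The metalloreductase gene freA (AN7662) went the other way, at -2.07 (-3.28 to -1.19) for urea over ammonium in fructose and -2.15 (-3.22 to -1.35) for fructose over glucose with urea, on 12 counts in fructose with urea.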
